A study of Rattus norvegicus with 85 samples.

Results

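Ankrd28 was the most densely sampled transcript of the panel: 20 of the 145 measured positions of the study's site list lay in its 3′ UTR, and no other gene contributed as many. The members were taken by gene name and annotation alone, and all 20 had levels in brain tissue. The list itself holds 146 positions, of which 145 have a row in the files, and the files hold 179 positions in all. Of the 74 listed 3′ UTR sites, the remaining 54 lie in other genes and serve below as the comparison list. The 6 sites in the 3′ UTR of Plekhd1 are among these 54 and are also given on their own.

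A-to-I editing is the deamination of adenosine to inosine in double-stranded RNA by ADAR enzymes, and sequencers read the inosine as guanosine. In 3′ UTRs the edited adenosines usually sit together, because inverted sequence copies folds into a long duplex on which the enzyme can act at several places at partial efficiency. Editing there leaves the protein unchanged and is known to touch RNA structure, microRNA sites and transcript fate. ANKRD28 is an ankyrin repeat protein that serves as a regulatory subunit of protein phosphatase 6. The editing level used throughout is the percentage of reads covering a position that carry the edited base.

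The samples came from Sprague-Dawley rats. Adults were females at postnatal day 60 (P60): unstressed controls (C) or females that had gone through a week of unpredictable stress in adolescence before they reproduced (prereproductive stress, PRS). First-generation (O1) pups are the offspring of these females, and second-generation (O2) pups descend from O1 males mated with naïve females. All pups were taken at birth (P0) and came from both sexes. Punches of prefrontal cortex (PFC) or amygdala (AMY) gave 5 C, 6 PRS, 5 O1-C, 6 O1-PRS, 7 O2-C and 7 O2-PRS samples of PFC and 5 C, 7 PRS, 5 O1-C, 6 O1-PRS, 7 O2-C and 6 O2-PRS samples of AMY. The 13 oocyte samples, 6 from C and 7 from PRS females, carry the age label P0, while the study's methods describe oocytes taken from unmated females after hormone treatment. The labels do not say which PFC and AMY samples share an animal or which pups share a litter, so that p-values measure the spread between these samples only. The panel holds editing positions and no marker genes, and tissue labels could not be checked against expression.

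The 20 sites lie on the minus strand of chromosome 16 (rn4), at 7168445 to 7169298, all annotated as 3′ UTR, so the transcript runs from the highest coordinate to the lowest. They fall into 3 stretches. The 11 positions written here as the dense stretch occupy 37 bases (7168445, 7168464, 7168465, 7168466, 7168469, 7168471, 7168476, 7168477, 7168478, 7168479 and 7168481). A lone site, 7168727, follows 246 bases on. After another 431 bases comes a group of 8 sites within 141 bases (7169158, 7169160, 7169173, 7169174, 7169214, 7169218, 7169220 and 7169298).

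Because levels are counted on PCR products, the primers fix which adenosines are read from the same molecules. The study lists 5 primer pairs for Ankrd28. Their gene-specific parts are printed 5′ to 3′ in lower case, without the adaptor tails that all pairs of the panel share, each under the sites that the list places beside it; the list does not say which strand each primer matches.

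Ankrd28 7168445, first primer: catcaaaagcaaacgccagt

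Ankrd28 7168445, second primer: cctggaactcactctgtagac

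Ankrd28 7168464 to 7168481, first primer: tgagtagaacgtaaagcctgt

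Ankrd28 7168464 to 7168481, second primer: atgcccagcttcagatgtttt

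Ankrd28 7168727, first primer: agatcatgagaggaagcagac

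Ankrd28 7168727, second primer: tgcatggcacatctgtatcac

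Ankrd28 7169158 to 7169174, first primer: atccagtcagctggttttgaa

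Ankrd28 7169158 to 7169174, second primer: gagaaagcaaacttcagtgct

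Ankrd28 7169214 to 7169298, first primer: cctctgcatctgtctccagta

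Ankrd28 7169214 to 7169298, second primer: tctcaaagtctcccaatactgt

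Read counts showed which sites were read together. Within the dense stretch the highest and lowest read counts of a sample differed by a median factor of 1.08 and by at most 1.10 over the 71 brain samples used, although the primer list gives 7168445 a pair of its own. Reads at 7169158 equalled 0.989 times (median of 71 samples) the sum of the reads at 7169174 and 7169214, so this position was covered by the products of both neighbouring pairs. The split was plain in oocytes: C replicate 168 had 6599 reads at 7169173 and 8 at 7169214, and C replicate 169 had 63 and 2532. Sites of the dense stretch therefore share reads and are not independent measurements, while the far group was read from more than 1 product.

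**Figure D1:**
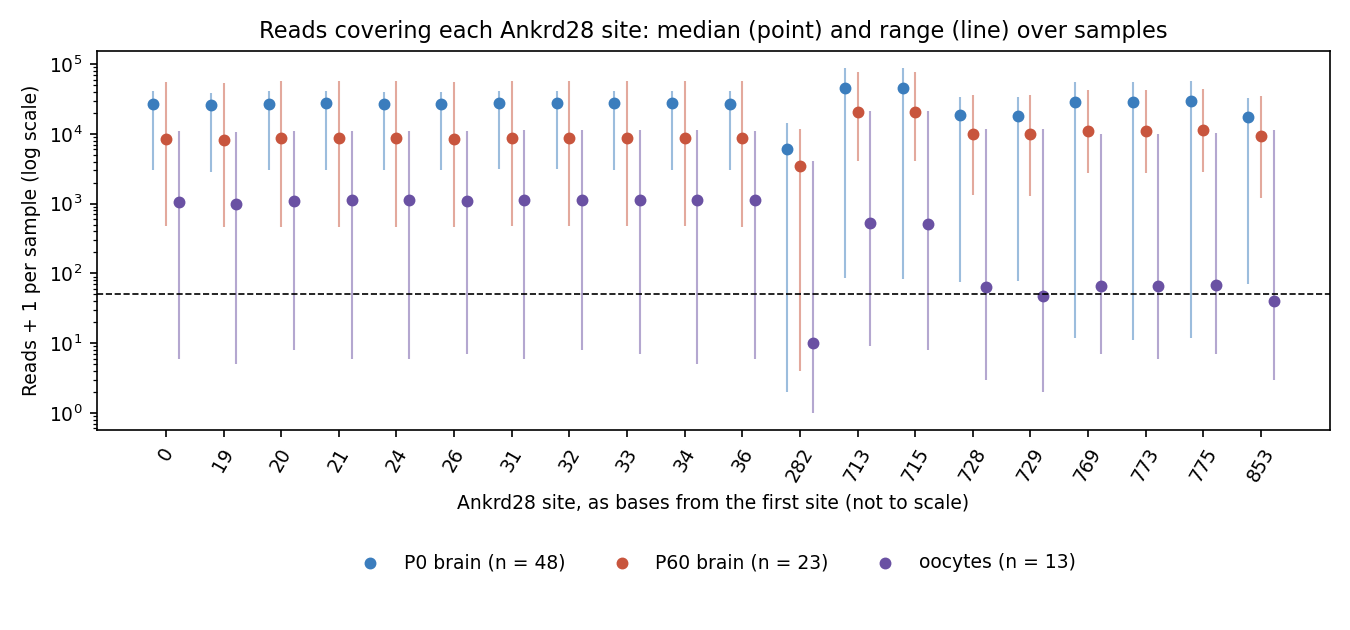
Reads covering each Ankrd28 site (reads + 1, log axis), as the median (point) and the range (line) over 48 P0 brain, 23 P60 brain and 13 oocyte samples; the dashed line marks the minimum of 50 reads. Median reads in the dense stretch were 27077.5 at P0, 8603 at P60 and 1113 in oocytes, and the lone site at 282 bases had the fewest reads in every set.

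Pooled over groups, adult samples had fewer reads than neonatal ones. The median over samples was 8603 reads in the dense stretch at P60 and 27077.5 at P0, and it was 3435 and 5998.5 at 7168727. Levels were used where at least 50 reads covered a site. At that minimum a level of 50% has a 95% Wilson interval from 36.6 to 63.4%, and since PCR reads are not independent molecules, this and every interval below covers counting error only. One O2-C PFC sample (replicate 155) had under 50 reads at more than 30% of the listed sites, Ankrd28 included, and was left out.

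Some brain libraries, 3 in all, stood apart at 3 or more of the 5 Ankrd28 sites with the highest brain level. The adult C PFC library of replicate 29 read 99.3% at 7168464 (453 of 456 reads, 95% Wilson interval 98.1 to 99.8%) and 0 to 0.9% at the other 10 sites of the dense stretch. The same library gave 26.0% at 7169218 and 21.1% at 7169220 on 2813 and 2879 reads, and 0.4% at 7169298. O1-PRS AMY replicate 53 read 14.0% at 7168445, 6.2% at 7168481 and 20.5% at 7168727, but 0.2 to 0.4% at the 9 sites from 7168464 to 7168479. O1-PRS PFC replicate 64 read 21.7% at 7168464, 12.8% at 7168445, 8.0% at 7168469 and 12.1% at 7169298, and 0.1% at 7168727. Averaged over the 11 sites of the dense stretch, replicate 29 had 9.24%, beside 7.51 to 10.2% in the other C PFC samples. Nearly all of that average came from the 99.3% at 7168464. Counts that rest on these libraries are given with and without them. Because the libraries were picked by their Ankrd28 levels, Ankrd28 counts without them are descriptions only.

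The level of editing depended strongly on the site. Over the 23 adult brain samples median levels ran from 0.8% at 7169173 and 7169214 to 21.3% at 7168481, followed by 7168464 (20.3%), 7168727 (17.0%), 7168466 (16.7%), 7168445 (14.2%), 7169218 (12.1%), 7169298 (10.7%) and 7169220 (9.2%). In the 48 neonatal samples the highest median was 7.4%, at 7168464, followed by 7168466 (5.85%), 7168727 (5.25%) and 7168481 (5.1%). Adjacent adenosines could be edited to very different extents. Among 3 neighbours the adult medians were 20.3% at 7168464, 6.6% at 7168465 and 16.7% at 7168466, and 4 bases separated 7169214 (0.8%) from 7169218 (12.1%).

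**Figure D2:**
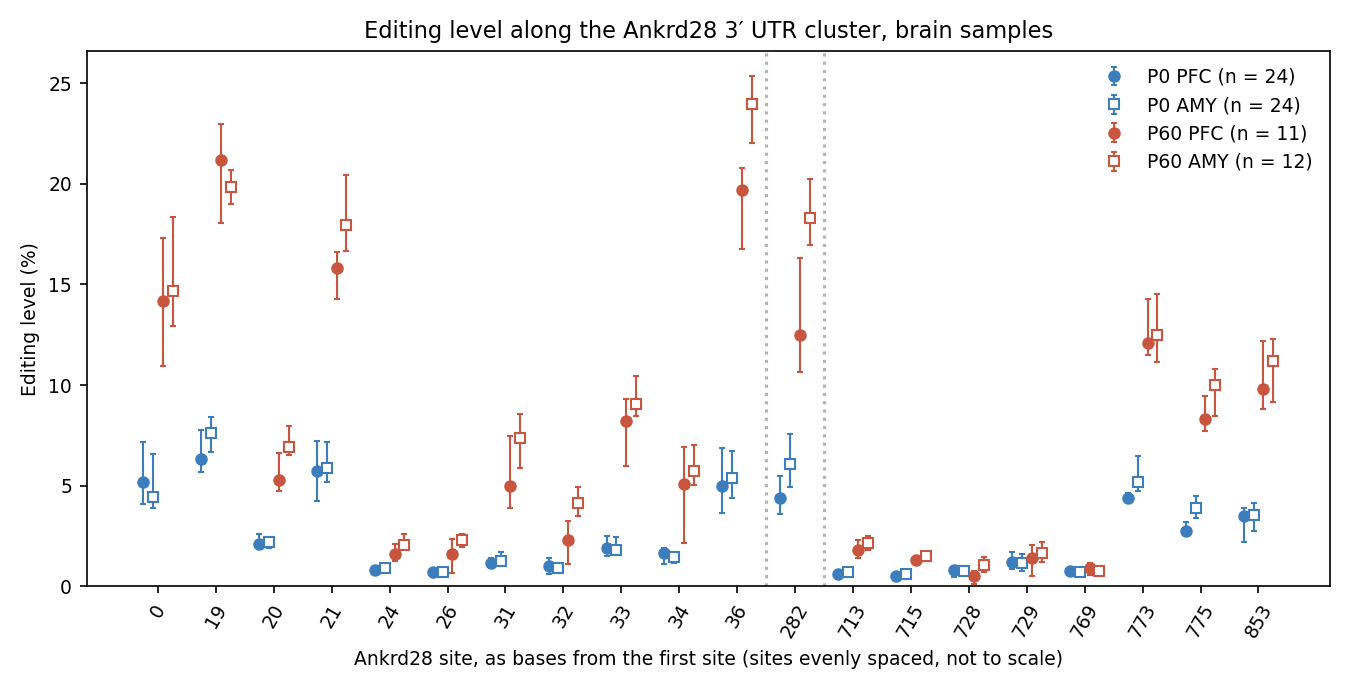
Editing level (%) at each of the 20 Ankrd28 sites, evenly spaced and labelled by bases from the first site, as the median and interquartile range over samples of 4 sets: PFC and AMY at P0 (blue, n = 24 each) and at P60 (red, n = 11 and 12). Dotted lines separate the dense stretch, the lone site and the far group. Adult medians exceeded neonatal ones at most sites, and the medians at 728, 729 and 769 bases stayed under 2% in all 4 sets.

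The order of the sites changed little between the brain sets. Spearman's rho over the 20 sites was 0.922 between neonatal and adult medians, 0.985 between C PFC and C AMY and 0.963 between O1-C PFC and O1-C AMY. These are descriptions across sites that share amplicons, with no test. The pooled adult median was 2.11 to 6.00 times the neonatal one at 17 sites, with the highest ratio at 7168476 (7.2 against 1.2%) and 7168478 (8.9 against 1.8%). At the other 3 sites, 7169173, 7169174 and 7169214, it was 1.00 to 1.17 times. The order at the top also shifted: 7168464 was the highest site of the dense stretch in 36 of 48 neonatal samples, and 7168481 in 14 of 23 adult samples.

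Levels were compared between ages within region, O1-C pups beside C adults and O1-PRS pups beside PRS adults. The test was a two-sided exact Mann-Whitney test, adjusted by the Benjamini-Hochberg method over all listed sites tested in that comparison. Sites were called at an adjusted p under 0.1. The question was whether editing of the cluster differs between birth and adulthood. In control AMY 14 of the 20 sites were higher at P60 and none was lower. Among all 141 sites tested 71 were called (50.4%), 68 of them higher in adults. The median difference over the Ankrd28 sites was 4.8 percentage points, against 1.8 over all sites and 1.35 over the 51 other 3′ UTR sites tested. In PRS AMY 17 of 20 sites were higher and none lower, where 82 of 145 sites were called (56.6%), and the median differences were 5.35, 1.75 and, for 54 other 3′ UTR sites, 0.65 points. The Plekhd1 cluster had 2 of 6 sites called in control AMY and 3 of 6 in PRS AMY, all higher in adults.

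In control PFC 4 of 20 sites were called, all higher in adults (7168464, 7168727, 7169218 and 7169220), with 43 of 143 sites called over the list (30.1%). Without C PFC replicate 29, 13 Ankrd28 sites were called, all higher in adults, and the share over all sites was 44.4%. In PRS PFC 15 of 20 sites were called, 14 higher and 1 lower at P60, where 75 of 143 sites were called (52.4%). Without O1-PRS PFC replicate 64 the count was 14, all higher in adults, of which 12 were among the 15. Without O1-PRS PFC replicate 70 it was 9, all higher in adults and all among the 15. The share of all sites called without either library is not given here, so these counts have no background beside them. The lower site was 7169173, at 0.2 to 4.0% in the O1-PRS pups (median 0.85%) and 0.1 to 0.6% in the PRS adults (median 0.15%; exact Mann-Whitney test, adjusted p = 0.0728). The sites 7168464, 7169218 and 7169220 were called in all 4 age comparisons, and 18 in at least 1. The exceptions were 7169174 and 7169214, which passed in none. Which sites were called in all 4 depended on C PFC replicate 29. That library read 99.3, 26 and 21.1% at 7168464, 7169218 and 7169220, above the other C PFC adults. It read at most 0.9% at the other sites of the dense stretch. Without it 7168464, 7169218 and 7169220 were still called in control PFC, among the 13 sites given above.

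**Figure D3:**
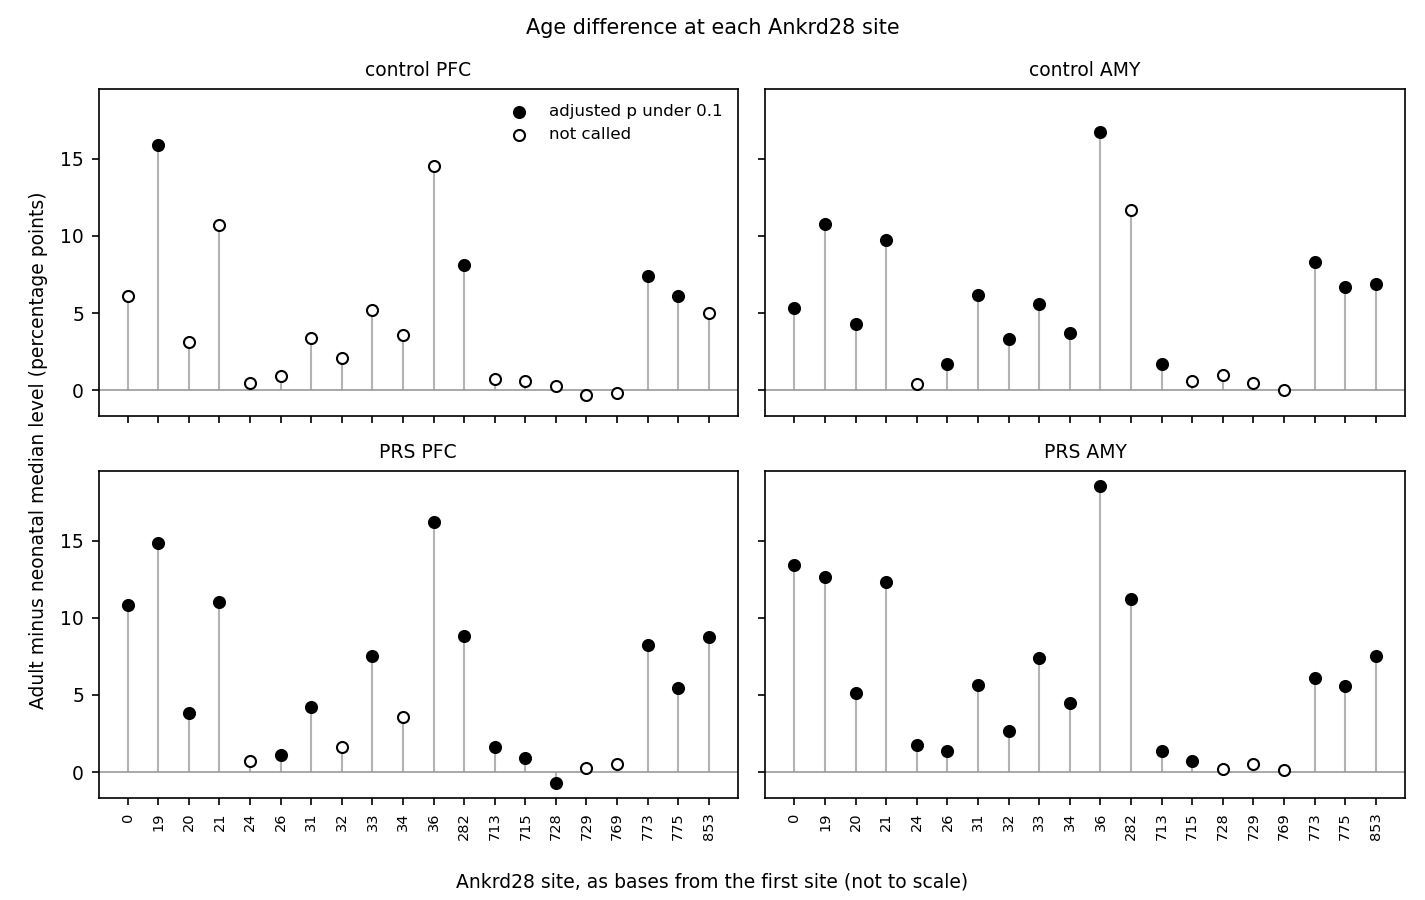
Adult minus neonatal median level (percentage points) at each Ankrd28 site, labelled by bases from the first site, in the 4 age comparisons; filled points passed an adjusted p of 0.1 (exact Mann-Whitney test) and open points did not. Differences reached 14.5 to 18.55 points at the site at 36 bases, although that site did not pass in control PFC.

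The site 7168481 had the largest median difference of the cluster in AMY. Control AMY levels were 6.7, 4.4, 4.3, 7.8 and 8.0% in the O1-C pups and 20.6, 22.3, 25, 25.8 and 23.4% in the adults (6.24 ± 1.80 and 23.4 ± 2.08%, SD, n = 5 each). The groups did not overlap (exact Mann-Whitney test, adjusted p = 0.0211). In PRS AMY they ran from 5.1 to 7.2% (median 5.75%, n = 6) at P0 and from 21.2 to 28.6% (median 24.3%, n = 7) at P60, again without overlap (exact test, adjusted p = 0.00296). In control PFC the pups had 3.7, 4.9, 5.6, 5.6 and 3.3% and the adults 20.3, 19.4, 21.3, 16.2 and, in replicate 29, 0.2%. Every adult but that replicate was above every pup, and the site was not called there (exact test, adjusted p = 0.295). PRS PFC samples ran from 3.0 to 10.4% at P0 (median 3.8%) and from 13.6 to 27.4% at P60 (median 20.0%), without overlap (exact test, adjusted p = 0.00774).

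At 7168464 the control PFC pups had 6.2, 6.5, 7.4, 6.3 and 5.7%, and the adults had 16.9, 25.9, 22.2, 14.4 and 99.3%. All adults were higher (exact Mann-Whitney test, adjusted p = 0.0299), and their mean of 35.7 ± 35.8% (SD, n = 5) was set by replicate 29, while the reads pooled over the 5 samples gave 19.8%. Control AMY levels were 8.8, 7.5, 8.5, 10.2 and 8.3% at P0 and 16.9, 19.3, 19.0, 21.8 and 19.4% at P60, without overlap (exact test, adjusted p = 0.0211). In PRS PFC the pups ran from 3.4 to 21.7% (median 5.4%) and the adults from 15.4 to 23.7% (median 20.25%). Among the pups replicate 64 alone reached the adult range (exact test, adjusted p = 0.0828). In PRS AMY the ranges were 0.4 to 8.5% (median 7.75%) and 18.0 to 22.2% (median 20.4%), without overlap (exact test, adjusted p = 0.00296).

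Close by, 7168466 read 9.1, 5.2, 7.1, 9.1 and 8.2% in control AMY pups and 14.7, 17.9, 26.2, 17.3 and 18.8% in the adults, without overlap (exact test, adjusted p = 0.0211). Control PFC pups had 5.7, 7.3, 5.8, 6.0 and 4.7%, and the adults 16.5, 18.2, 17.1, 14.5 and, in replicate 29, 0.9%, so the same library alone broke the separation and the site was not called. PRS medians rose from 4.45 to 15.45% in PFC and from 5.65 to 18.0% in AMY, in both regions without overlap (exact tests, adjusted p = 0.00774 and 0.00296).

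At 7168445, the end of the cluster nearest the 3′ end of the transcript, control AMY pups had 6.3, 4.1, 8.9, 8.2 and 10.1% and adults 12.7, 13.5, 15.9, 17.1 and 13%, without overlap (exact test, adjusted p = 0.0211). Control PFC pups had 4.4, 7.3, 5.0, 6.1 and 5.0% and adults 11.1, 20.3, 14.2, 10.6 and, in replicate 29, 0.2% (exact test, adjusted p = 0.295). In the PRS groups the medians were 4.85 and 15.65% in PFC and 4.9 and 18.3% in AMY. Both ages overlapped in both regions, through replicate 64 (12.8%) in PFC and replicate 53 (14.0%) in AMY (exact tests, adjusted p = 0.0217 and 0.0171).

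The lone site 7168727 was read from its own product. Control PFC pups had 5.5, 4.3, 3.5, 4.6 and 4.4%, and 4 adults had 11.7, 27.7, 12.2 and 12.8% while replicate 29 fell under the read minimum (exact Mann-Whitney test, adjusted p = 0.054). Control AMY pups had 7.1, 6.1, 4.5, 9.3 and 6.1%, and 4 adults had 15.4, 1.2, 20.2 and 20.8%. The adult at 1.2% (replicate 11) was below every pup and the site was not called (exact test, adjusted p = 0.341). In PRS PFC 5 pups had 3.6, 3.5, 0.1, 2.9 and 3.6%, and the 6 adults ran from 3.1 to 25.6% (median 12.3%; exact test, adjusted p = 0.0554). In PRS AMY 6 pups ran from 4.4 to 20.5% (median 7.05%) and 7 adults from 16.8 to 32.8% (median 18.3%; exact test, adjusted p = 0.0642).

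**Figure D4:**
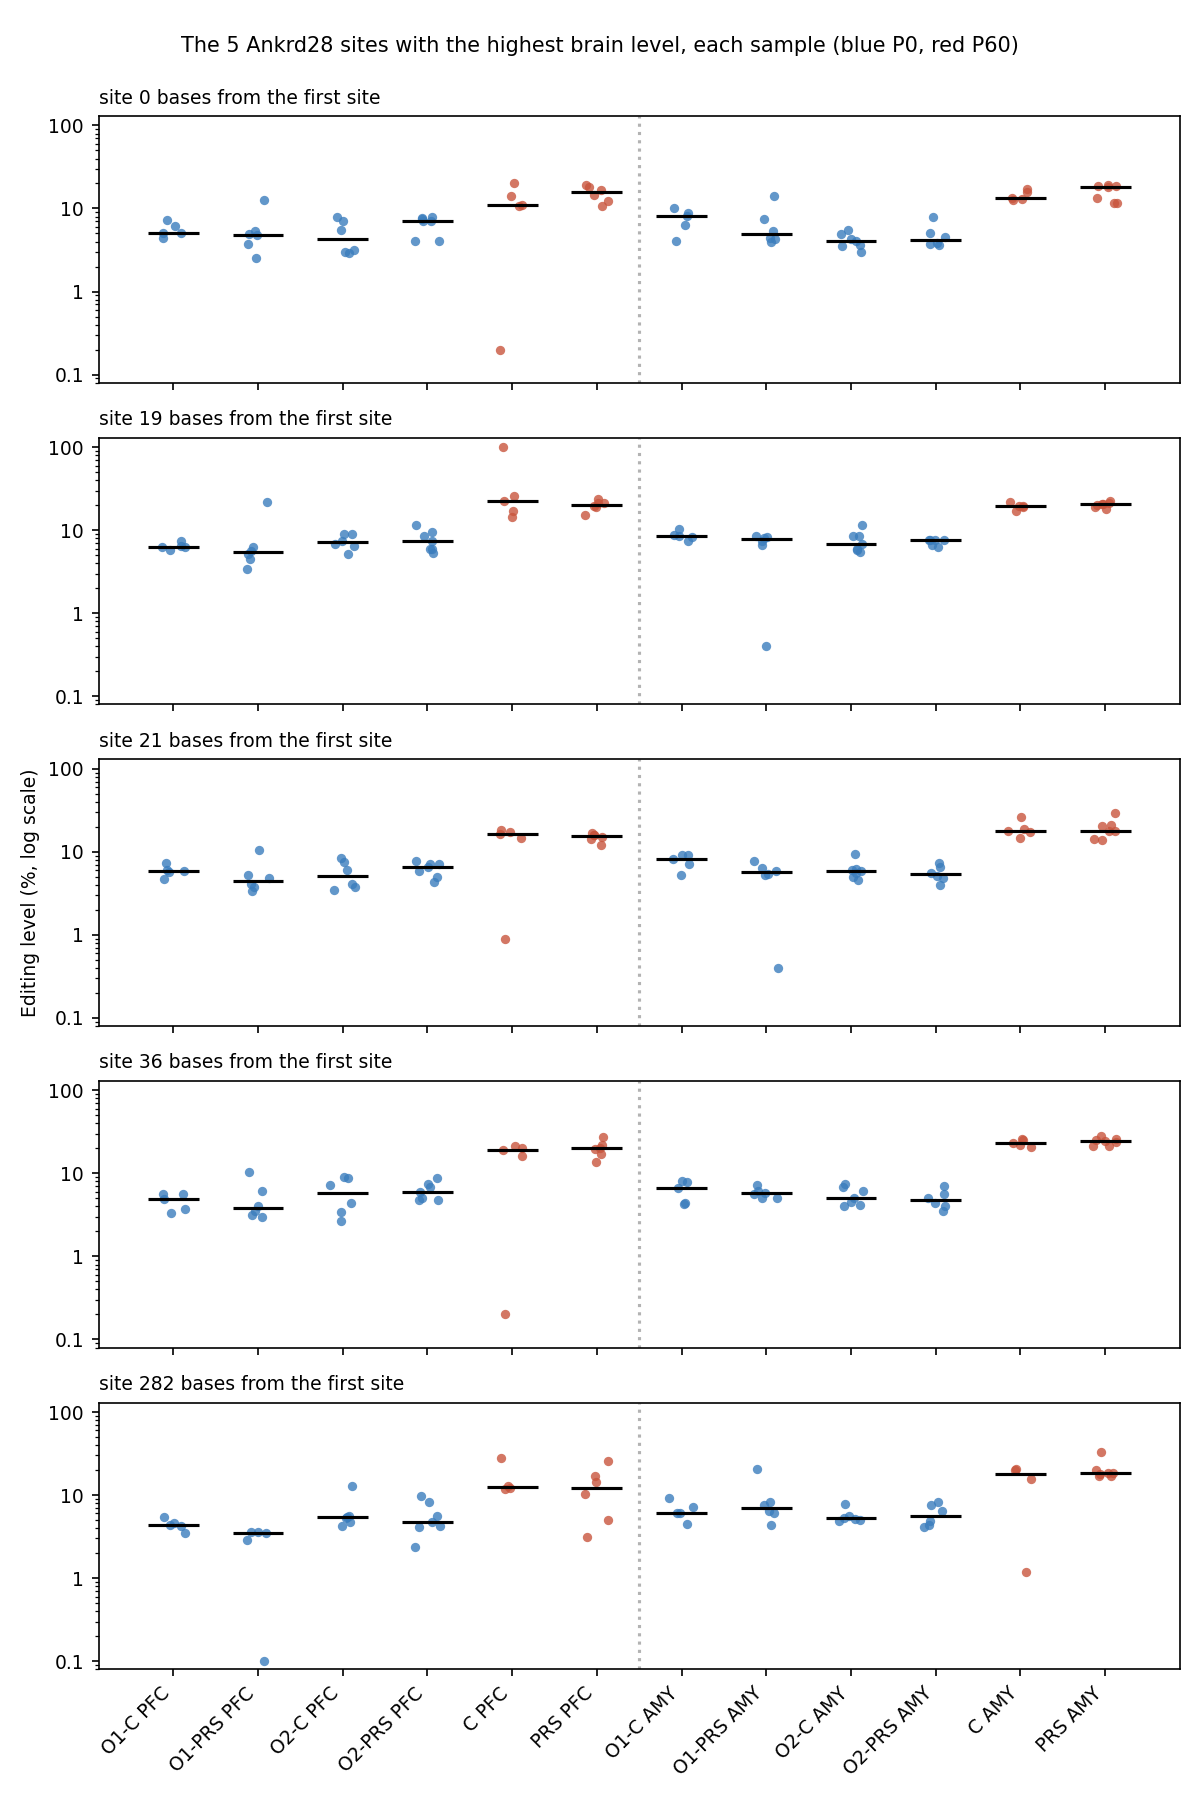
Editing level (%, log axis) in every brain sample at the 5 Ankrd28 sites with the highest brain level, labelled by bases from the first site; blue points are P0, red points P60 and bars are group medians. Adult medians lay above neonatal medians at all 5 sites in both regions, and the points far from their group belong mostly to C PFC replicate 29, O1-PRS PFC replicate 64 and O1-PRS AMY replicate 53.

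In the far group 7169218 and 7169220 were the only sites called in all 4 age comparisons. C PFC replicate 29 read 26.0 and 21.1% there, above the other C PFC adults (11.5 to 13.5% and 7.3 to 13.6%). The same library read 0.4% at 7169298, which was called in control PFC only when that library was left out. At 7169218 median levels were 4.1 and 11.5% in control PFC, 5.2 and 13.5% in control AMY, 4.4 and 12.65% in PRS PFC, and 5.3 and 11.4% in PRS AMY, the first value of each pair at P0. The ages did not overlap in any of the 4 comparisons at 7169218 or 7169220. The far end, 7169298, rose in control AMY from 2.9 to 8.2% (median 4.8%) to 8.0 to 12.5% (median 11.7%; exact test, adjusted p = 0.0373). The remaining members of this group were low at both ages. At 7169214 the group medians lay between 0.6 and 1.1% in all 12 brain groups. At 7169158 they were called higher in adults in 3 comparisons, by 1.35 to 1.7 points.

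Counted without regard to the test, the ages did not overlap at 4, 12, 6 and 14 of the 20 sites in control PFC, control AMY, PRS PFC and PRS AMY. Over all sites tested the ages did not overlap at 27.3%, 39.7%, 30.1% and 40.7% in the same order. With all libraries the share in Ankrd28 was above that of all sites in AMY, near it in PRS PFC and below it in control PFC. The PFC counts rested on single libraries. Without C PFC replicate 29 the ages did not overlap at 13 of 20 sites in control PFC, against 40.8% of all sites. Without O1-PRS PFC replicate 64 the count was 13 of 20 in PRS PFC, against 41.3%, and without O1-PRS AMY replicate 53 it was 16 of 20 in PRS AMY, against 42.8%. The share in Ankrd28 was then the higher one in each of these comparisons. However, the libraries left out were picked by their levels at Ankrd28 sites, which by itself favours a higher Ankrd28 share. These shares are therefore descriptions, and no conclusion is drawn from them.

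Averaged over the dense stretch, the 23 adults had 7.51 to 13.1% (median 9.95%) and the 48 neonates 1.58 to 7.78% (median 2.97%). The only neonate in the adult range was O1-PRS PFC replicate 64 (7.78%). This average is a description and was not tested.

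Adults and neonates also differed in sex and in library numbers, which run in sets of 48. Every age comparison set adults beside O1 pups, so age and generation cannot be told apart. PRS adults had themselves been stressed, while O1-PRS pups were born to stressed females, so direct stress moves with age there too. All adults were female, and adult PFC libraries all fell in the first set, with library numbers 1 to 48. In control PFC 1 pup, a female, was in that set, so that set and age can barely be told apart; against it all 20 adult medians were higher. In PRS PFC the 3 pups and 6 adults of the first set, all female, had 19 sites higher and 1 lower in adults. In control AMY the first set held 1 pup and 3 adults, with 20 sites higher, and the set of 145 to 192 held 1 pup and 2 adults, with 19 higher. In PRS AMY the first set held 2 pups and 5 adults, with 18 sites higher and none lower. Among females alone, 20 sites were higher in adults in control AMY (2 pups, 5 adults) and 20 in PRS AMY (3 pups, 7 adults). When labels were exchanged only within sets, 13 and 17 Ankrd28 sites were called in PRS PFC and PRS AMY. Only the first set held both ages there, so these calls rest on 3 and 2 pups. The share of all sites called under this exchange is not given here, so the counts have no background beside them. In control AMY no Ankrd28 site was called within sets (smallest adjusted p = 0.190 by this exact permutation), where the sets leave few assignments. Reads moved with age as well, and were lower in adults in control PFC, PRS PFC and PRS AMY. In control AMY they were not, with median reads of 1.88e+06 in C and 1.69e+06 in O1-C samples. The part of reads, sex, set, generation and direct stress in the age difference was not tested beyond these values. At 7168481 the first-set medians were 3.2 and 20.0% in PRS PFC and 5.45 and 24.3% in PRS AMY.

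Whether the age difference itself differed between regions was tested in controls by an exact permutation of the age labels within each region. No Ankrd28 site passed (0 of 20, smallest exact p = 0.176, adjusted p = 0.960, none at an unadjusted p under 0.05), and neither did any of the 139 sites tested, 8 of which had an unadjusted p under 0.05. At 7168481 the difference of means was 10.9 points in PFC and 17.2 in AMY, and 14.7 in PFC without C PFC replicate 29. The permuted levels kept the age effect, so where ages differed strongly the test could hardly call a difference between regions. No conclusion on a difference between the regions is drawn.

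Regions were compared in O2-C pups and in adult controls. In O2-C pups 1 Ankrd28 site passed, 7169220, at 2.3 to 3.4% in 6 PFC samples (median 2.85%) and 3.3 to 6.0% in 6 AMY samples (median 4.15%; exact Mann-Whitney test, adjusted p = 0.0470). The groups overlapped slightly. Over the list 20 of 141 sites were called (14.2%). The median Ankrd28 difference, AMY minus PFC, was -0.05 points, with 10 sites above 0 and 10 below. The set of 145 to 192 held 4 PFC samples and 1 AMY sample, and that of 241 to 288 held 2 and 6. Of the 20 AMY medians 10 were higher in the latter and 2 in the former. In adult controls no site was called in Ankrd28 or anywhere on the list (0% of 139 sites, with 1 Ankrd28 site and 18 in all at an unadjusted p under 0.05), and permutation of the mean difference called no Ankrd28 site either. The 1 site was 7168481, at 23.4% in AMY and 19.4% in PFC by the median (exact test, p = 0.0159, adjusted p = 0.184). Adult AMY medians were the higher ones at 19 of 20 sites, by a median of 1.4 points, against 0.5 over all sites. The PFC values of this comparison include C PFC replicate 29, which read 0.2% at 7168481. Without it the PFC median was 19.85% at 7168481 and 5.95% at 7168479, where the AMY median was the lower one at 5.4%. The test and the count of higher sites without that library are not given here. No PFC sample was in the second library set of the AMY samples. Among the libraries of the first set AMY was higher at 15 sites and lower at 2.

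Prereproductive stress was compared in adults, in both generations of pups and in oocytes. None of the 20 sites was called in any of the 6 brain comparisons, by the exact Mann-Whitney test or by permutation of the mean difference. In adult PFC the PRS medians at the 5 highest sites were 15.65% (7168445), 20.25% (7168464), 15.45% (7168466), 20.0% (7168481) and 12.3% (7168727), beside 11.1, 22.2, 16.5, 19.4 and 12.5% in C. In adult AMY they were 18.3, 20.4, 18.0, 24.3 and 18.3% beside 13.5, 19.3, 17.9, 23.4 and 17.8%. The ranges of C and PRS overlapped at all 5 sites in both regions. Over the list no site was called in adult PFC (0% of 141 sites) or adult AMY (0% of 141), and no Ankrd28 site reached an unadjusted p of 0.05 in either, against 6 and 3 sites of the whole list.

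In the F1 pups no site of the list was called in PFC (0% of 145) or AMY (0% of 145). At an unadjusted p under 0.05, 2 Ankrd28 sites were lower in O1-PRS PFC and 1 in O1-PRS AMY, of 9 and 11 on the list. These were 7168727 in PFC, with O1-C medians of 4.4% and O1-PRS of 3.5% (exact test, p = 0.0397, adjusted p = 0.753), and 7169158 in PFC, at 0.8 and 0.4% (exact test, p = 0.0130, adjusted p = 0.732). In AMY it was 7168469, at 1.6 and 0.85% (exact test, p = 0.0368, adjusted p = 0.540). Of the 20 medians 17 were lower in O1-PRS than in O1-C in PFC and 15 in AMY. The median differences were -0.2 and -0.325 points. Over the list 81 and 82 of 145 medians were lower, with a median difference of -0.05 points in both regions. Among females 11 Ankrd28 medians were lower and 8 higher in PFC, and 7 lower and 12 higher in AMY. Among males 13 were lower and 7 higher in PFC, and 14 lower and 6 higher in AMY. Without replicate 64 in PFC or replicate 53 in AMY, no site was called either.

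In the F2 pups 2 of 141 sites of the list were called in PFC (1.42%) and 4 of 145 in AMY (2.76%), none of them in Ankrd28, where none had an unadjusted p under 0.05, against 22 and 9 on the list. The median difference, O2-PRS minus O2-C, was 0.1 points in PFC and 0.025 in AMY. At 7168464 the 6 O2-C PFC samples ran from 5.1 to 9.1% and the 7 O2-PRS samples from 5.3 to 11.6%. Sex and library set were unevenly divided between these groups. Their exchange within sets or within sex called no Ankrd28 site in F1 or F2.

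Of the 13 oocyte samples 3 C and 5 PRS had 50 or more reads across the dense stretch, with 270 to 11320 reads a site. In 7 of these 8 a few sites were at high levels and the rest near 0, and in the other, PRS replicate 4-2s, all sites were near 0. Brain tissue had the form of the 7 in C PFC replicate 29. At lower levels it was also seen in O1-PRS AMY replicate 53, on 23120 to 24782 reads a site. How many template molecules stand behind the reads was not measured, so that these levels are shares of PCR reads and may not be the shares of edited transcripts in the sample, and the part of template number in them was not tested. In all 8, 6 to 11 of the 11 sites were at or under 1%, and no more than 1 site lay between 1 and 10%. Adults had a median of 0 sites at or under 1% and of 6 between 1 and 10%. The sites that were edited differed from sample to sample.

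C oocyte replicate 169 read 98.1% at 7168464 and 97.8% at the adjacent 7168465, on 1662 and 1699 reads, and at most 0.7% at the other 9 sites. PRS replicate 165 read 97.8% at 7168445 and 97.6% at 7168479, and at most 0.3% elsewhere in the stretch. PRS replicate 170 read 83.5% at 7168481 (95% Wilson interval 78.6 to 87.4%, 278 reads) and at most 2.2% elsewhere. In each of these samples 1 or 2 positions carried nearly all the edited reads of the stretch.

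Other oocyte samples had several sites at intermediate levels, in some of them nearly equal. PRS replicate 1-0b read 27.1% at 7168445, 27.4% at 7168466, 27.2% at 7168476 and 26.9% at 7168477, and 0.1 to 0.7% at the other 7 sites. The 95% Wilson intervals of the 4 sites all lay within 24.4 to 30.1%. PRS replicate 1-7b read 51.2% at 7168445, 53.6% at 7168464, 48% at 7168477 and 50.3% at 7168478, and 0.1 to 0.4% at the rest. C replicate 166 read 14.7, 13.5, 13.9 and 13.4% at 7168464, 7168465, 7168466 and 7168478 and 29.2% at 7168445. C replicate 163 read 16.1% at 7168445, 41.1% at 7168464, 18.0% at 7168478 and 53.7% at 7168481. PRS replicate 4-2s, with 2049 to 2151 reads a site, had no site above 0.2%.

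**Figure D5:**
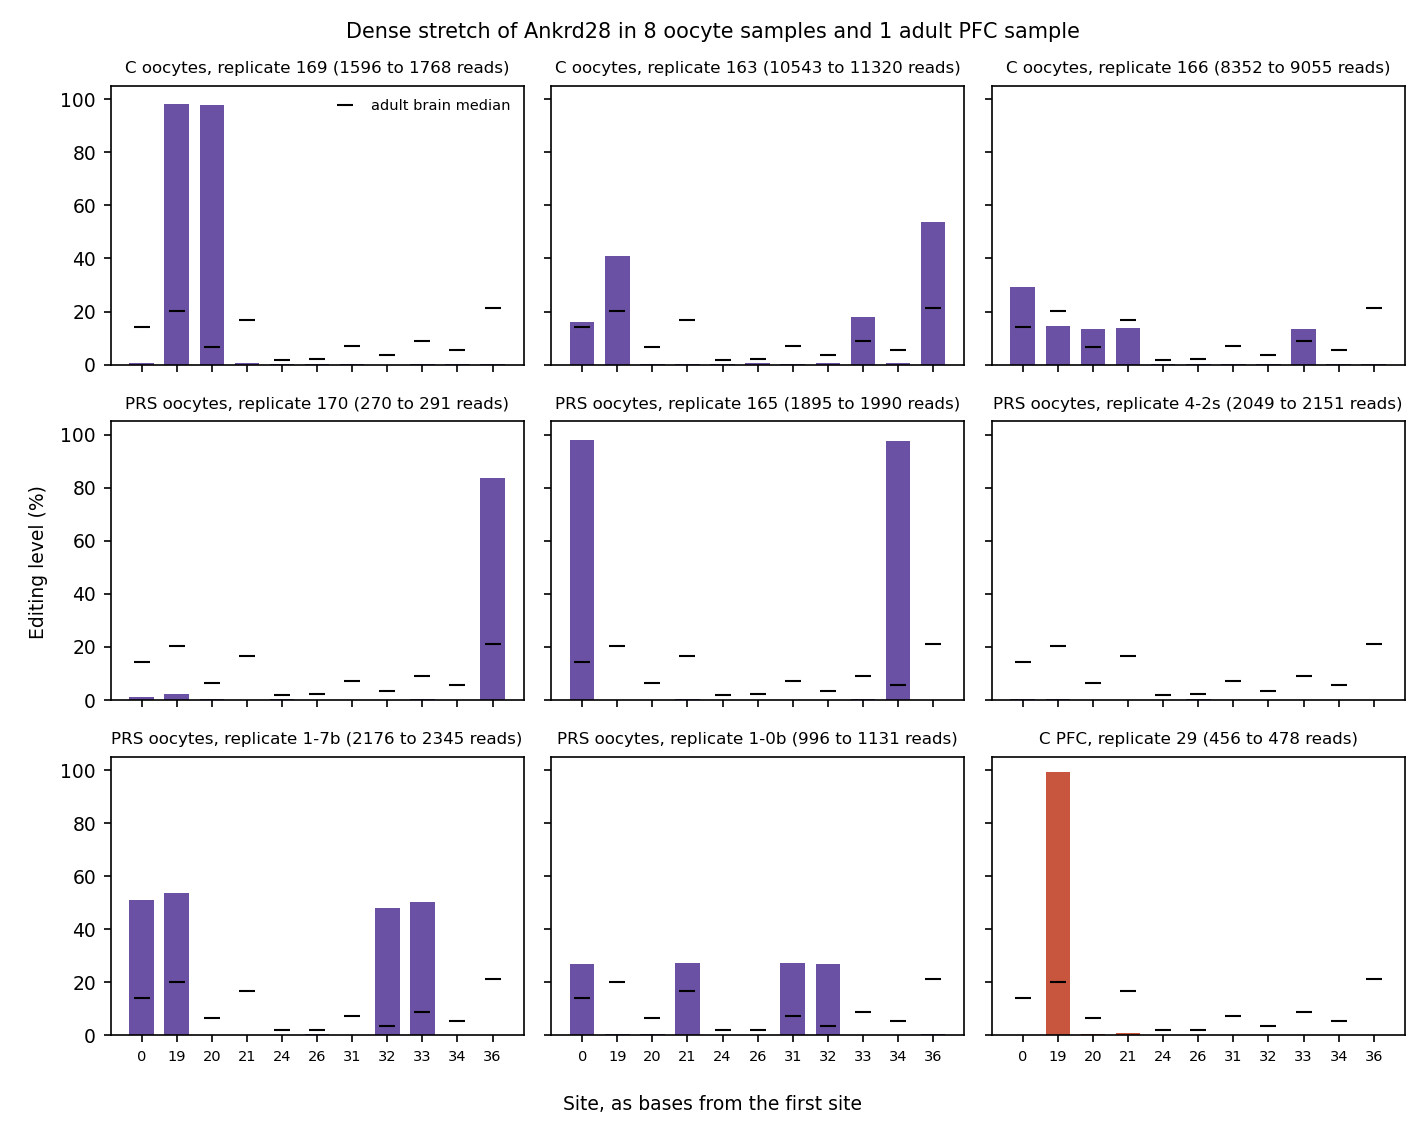
Editing level (%) at the 11 sites of the dense stretch, labelled by bases from the first site, in the 8 oocyte samples with at least 50 reads there (purple bars) and in C PFC replicate 29 (red bars), with dashes at the adult brain medians. In each panel 6 to 11 sites are at or under 1%, and the sites that are not differ between samples; the first oocyte panel reaches 98.1% and the adult PFC panel 99.3%.

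Outside the dense stretch the same held. At 7168727 only 3 oocyte samples had enough reads, all C, and they read 99.4 to 100% on 1677 to 4015 reads, while no PRS oocyte sample had more than 30 reads there. At 7169218 C replicate 169 read 98.5% and the other 8 measured samples 0 to 6.9%. At 7169298 C replicate 166 read 99.6% and PRS replicate 1-7b 48.6%, and 4 others 0.4 to 7.3%. The mean over the dense stretch was 0.0909% in replicate 4-2s and 7.79 to 18.6% in the other 7, beside an adult brain range of 7.51 to 13.1%.

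Oocytes were compared with adult brain tissue by the same test, on these shares of reads, in which 61 listed sites could be tested. Against adult PFC 10 Ankrd28 sites were called, 9 lower in oocytes and 1 higher, where 33 of the 61 sites were called (54.1%). Against adult AMY 11 were called, 10 lower and 1 higher, with 35 of 61 called (57.4%). The higher site was 7168727 in both (exact test, adjusted p = 0.0185 against PFC and 0.0116 against AMY), resting on the 3 C samples. The lower site with the smallest p against PFC was 7169220, at 0 to 3.8% in 9 oocyte samples (median 0.7%) and with medians of 8.3% in adult PFC and 10.0% in adult AMY, without overlap (exact tests, adjusted p = 0.000121 and 8.07e-05). The rank test and the mean pointed opposite ways at 7168479, where the oocyte median was 0.2% and the mean, with 1 sample at 97.6%, was above that of both regions. The same was true of 7169158 against AMY. Permutation of the mean difference called 6 sites against PFC and 7 against AMY, and its share over all sites is not given here.

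Between C and PRS oocytes 19 Ankrd28 sites had 3 or more samples in both groups. None was called (smallest exact p = 0.107), nor was any of the 36 listed sites tested (0%), and none had an unadjusted p under 0.05. With 3 C and 5 PRS samples at most sites of the dense stretch, an exact test cannot give a p below 0.0357.

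Among the other genes, the sites whose mean level over the 12 brain groups ran most closely with the Ankrd28 mean (over the 16 sites measured in all 71 samples) were 3′ UTR sites of Mmgt1 (chromosome X, 141126032, Pearson r = 0.992), Usp29 (chromosome 1, 65275941, r = 0.991) and Mpeg1 (chromosome 1, 215391800, r = 0.990), the best of 76 sites of other genes compared. All groups of 1 age share that age, so that this likeness is mainly of 2 levels, and it is given as a description with no test. Among samples of the same age, sites of the dense stretch varied together from sample to sample. The median Spearman correlation of a pair was 0.437 in 48 neonates and 0.325 in 23 adults, on shared reads, and between the dense stretch and the far group, on separate reads of the same library, it was 0.320 and 0.155.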

How the data were processed

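RNA editing was measured by mmPCR-seq (microfluidic multiplex PCR and sequencing) in 85 rat samples. The authors aligned paired-end reads to rn4 with exon junctions by BWA and used SAMtools (versions not given in the sources used here). For each position the authors deposited counts of covering and edited reads and the edited fraction, with 3 decimals. No molecular identifiers were used. Levels here are the deposited fraction in percent where coverage was at least 50. The 145 listed positions with a row were analysed, and 1 listed position was not analysed here. Groups came from the sample labels. Of 72 brain samples, 1 with over 30% of sites under the minimum was left out. Tests needed 3 samples a group and were two-sided exact Mann-Whitney tests with mid-ranks (numpy 2.4.6), Benjamini-Hochberg adjustment over all tested sites and FDR 0.1, after the study's methods. Direction was taken from ranks. The interaction permuted age labels within regions, with the age effect left in the levels. The rank test was checked against full enumeration. It was also run on simulated levels, with shifts larger than most Ankrd28 differences and no library like C PFC replicate 29. Per-sample values are given for the 5 sites with the highest brain mean, and called sites and the 3 most similar genes are named by rule. The members, lists and rules were chosen with earlier results of these data known. Replicates of a brain group differed by more than counting noise (lowest chi-square per site 3.52, over 120 sites). Among oocytes the lowest was 1.72, over 9 sites with few reads. Alternatives were a minimum of 200 reads or none, an FDR of 0.05, adjustment over other site sets, sites at 1% or more, pooled reads, permutation of means, a logit scale for the interaction, exchange within library sets or sex, the left-out sample kept, and leaving out each sample. Levels from unrounded reads and fits and overlap counts without the libraries standing apart were added after seeing the data.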

Additional observations from a re-analysis of the deposited data

Results flagged for a closer look

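Of 64 combinations of a group and one of the 5 highest Ankrd28 sites, 20 had an end sample whose gap to the next, divided by the range of the group, passed the 95% critical value of Dixon's test, where chance flags about 1 group in 20. The 20 values belonged to 11 libraries, and 17 were in brain tissue. Causes were not tested.

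C PFC replicate 29 was far from the other 4 adults at 3 sites, with 99.3% at 7168464 (others 14.4 to 25.9%), 0.2% at 7168481 (others 16.2 to 21.3%) and 0.9% at 7168466 (others 14.5 to 18.2%), on 456 to 464 reads. O1-PRS AMY replicate 53 stood apart at 4 sites on 1432 to 24687 reads. It read 0.4% at 7168464 (others 6.6 to 8.5%), 0.4% at 7168466 (others 5.2 to 7.8%), 20.5% at 7168727 (others 4.4 to 8.3%) and 14.0% at 7168445 (others 3.9 to 7.4%). O1-PRS PFC replicate 64 did so at the same 4 sites, with 21.7% at 7168464 (others 3.4 to 6.3%), 10.4% at 7168466 (others 3.4 to 5.3%), 0.1% at 7168727 (others 2.9 to 3.6%) and 12.8% at 7168445 (others 2.5 to 5.4%).

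Single values stood apart in other brain libraries. At 7168727 they were 27.7% in C PFC replicate 20 (others 11.7 to 12.8%), 12.8% in O2-C PFC replicate 131 (others 4.2 to 5.6%), 7.7% in O2-C AMY replicate 138 (others 4.9 to 5.6%) and 32.8% in PRS AMY replicate 14 (others 16.8 to 20.3%). O2-C AMY replicate 138 also read 9.5% at 7168466 (others 4.6 to 6.2%). O2-PRS AMY replicate 115 read 7.9% at 7168445 (others 3.6 to 5.0%). In PRS oocytes replicate 1-7b read 53.6% at 7168464 (others 0.1 to 2.2%), replicate 170 read 83.5% at 7168481 (others 0 to 0.6%) and replicate 1-0b read 27.4% at 7168466 (others 0 to 0.3%).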

How the results depend on the processing

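The number of Ankrd28 sites called stayed within 1.5 times its reported value in all settings but these. In control PFC the 4 sites higher in adults became 13 without the libraries standing apart, a setting added after the data were seen, and 3 to 13 when 1 sample was left out, with 13 without C PFC replicate 29. Exchange within library-number sets in control AMY called 0 of the 14. In PRS PFC the 15 became 9 at an FDR of 0.05 and 9 to 14 when 1 sample was left out, with 9 without O1-PRS PFC replicate 70. The 1 site between regions in O2-C pups became 0 without a read minimum and 0 to 1 when 1 sample was left out, with 0 without O2-C PFC replicate 157. Against oocytes, permutation of the mean difference called 6 sites in PFC and 7 in AMY, and exchange within sets called 6 in AMY. Leaving out 1 sample gave 14 to 16 sites in control AMY, 16 to 17 in PRS AMY, 8 to 12 for PFC and 9 to 12 for AMY against oocytes, and 0 in every stress comparison, in adult regions and in the interaction. Apart from control PFC without C PFC replicate 29, the share of all sites called under these settings is not given here. Without a read minimum 7168727 reversed and was lower in oocytes than in adults, by -6.0 points against PFC and -12.2 against AMY, since oocyte samples with few reads then entered. Exchange within sets was not run for control PFC (6 assignments, smallest p = 0.167 by exact permutation) and adult PFC against oocytes (1 assignment). No paired analysis was possible because no replicate number occurs in 2 groups. In oocytes the depth limits the lone site to 3 samples.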
